A study of Mus musculus with 9 samples.

Results

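The renin-angiotensin system was followed in mouse kidney through 9 genes, Agt, Ren1, Ace, Mme, Enpep, Agtr1a, Agtr1b, Mas1 and Atp6ap2, which were chosen by gene symbol as the precursor, peptidases and receptors of the pathway. All 9 were found among the 55385 genes of the deposited RNA-seq table, and 8 of them passed the filter on low counts that 21392 genes passed. Poly(A) RNA of kidney was sequenced from mice labelled C57BL/6 in 3 groups of 3 libraries, and the study's methods describe male C57BL/6J mice 8 to 10 weeks old. Control mice (replicates 2, 4 and 5) carry the disease state control, and the study's text does not describe what they were given. HN mice (replicates 4, 8 and 12) had hyperuricemic nephropathy, produced over 4 weeks by feeding every other day with adenine at 0.16 g/kg, which also injures tubules directly, and potassium oxonate at 2.4 g/kg, an inhibitor of the enzyme that breaks down uric acid. PEC mice (replicates 1, 2 and 3) received the same feeding and, by mouth each day over the same 4 weeks, the plant flavonoid pectolinarigenin at 25 mg/kg, a dose that stands in the study's text and not in the labels. Control libraries were grouped by their disease state, although their titles also contain the name HN. Nothing in the labels says that the libraries of a group came from separate animals, so p-values measure the spread between these libraries.

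Angiotensinogen, the product of Agt, is cut by renin to angiotensin I, from which angiotensin-converting enzyme (Ace) makes angiotensin II. Neprilysin (Mme) and aminopeptidase A (Enpep) trim these peptides further, and the angiotensin II type 1 receptors (Agtr1a, Agtr1b) and Mas1 bind different products. In kidney, renin is released by juxtaglomerular cells of the afferent arteriole, while angiotensinogen, Ace, neprilysin and aminopeptidase A are found in or on proximal tubule cells.

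Libraries held 57714111 to 81069646 counted reads, with a median of 74397038. Mitochondrial genes took 14.2% ± 1.82 (SD, n = 3) of the reads of Control libraries, 6.19% ± 0.164 (SD, n = 3) of those of HN and 12.3% ± 1.77 (SD, n = 3) of those of PEC libraries. The fold changes below depend on the scaling. With TMM factors, which align most genes between libraries, the median log2 fold change of all tested genes was -0.001 in HN against Control, whereas scaling to library totals alone moved it to 0.56. It was -0.21 in PEC against HN and 0.40 in PEC against Control under library totals. Values per library are given as TMM-normalised counts, each divided by its library total and TMM factor and scaled as CPM, and FPKM is used to compare levels between genes.

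By adipocyte markers 3 libraries stood apart, PEC replicate 3 by far the most. The 6 adipocyte markers summed to 169 FPKM in PEC replicate 3, led by Adipoq at 61.2 and Ucp1 at 50.7 FPKM. In HN replicate 12 they summed to 15.4, in Control replicate 2 to 6.44, and in each of the other 6 libraries to at most 0.39 FPKM. Values without PEC replicate 3 are given below for each of the 8 tested genes, and for genes of other lists where the call in PEC against HN changed. Leaving out HN replicate 12 ended the calls of Ren1 and Agt in PEC against HN and no other call of the 8 genes, and leaving out Control replicate 2 changed none of their calls. The tissue label reads kidney, although the extraction text of all 9 libraries speaks of an adipose type, and the 10 proximal tubule markers summed to at least 917 FPKM in every library.

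In HN against Control, 2 of the 8 tested genes were called, both lower, by edgeR at a fold change of at least 1.5 and an adjusted p of at most 0.05. Over all tested genes 32.1% were called, 17.5% higher and 14.6% lower. With the adjusted p alone 5 of the 8 passed, against 41.7% of all tested genes. In PEC against HN, 3 of the 8 were called, 2 higher and 1 lower, against 28.4% of all tested genes, of which 13.2% were higher and 15.1% lower, and 4 passed the adjusted p alone, against 38.7%. In PEC against Control, 5 of the 8 were called, 1 higher and 4 lower, against 36.0% of all tested genes, with 18.7% higher and 17.3% lower, and the same number, 5, passed the adjusted p alone, against 46.3%. The median log2 fold change of the 8 genes was -0.39, 0.44 and -0.65 in the 3 comparisons, beside -0.001, -0.015 and 0.045 over all tested genes. Under library totals the first of these medians turned to 0.17, the others were 0.23 and -0.29, and the calls were 1 higher and 2 lower in HN against Control, 1 higher and 1 lower in PEC against HN, and 2 higher and 2 lower in PEC against Control, where 8919, 6502 and 8290 of all 21392 tested genes were called. Without PEC replicate 3, 2 higher and 1 lower were called in PEC against HN, and 2 higher and 3 lower in PEC against Control. The median of the 8 genes in PEC against HN was 0.21 without PEC replicate 2. PEC against HN and HN against Control share the HN libraries, PEC against Control shares libraries with both, and their values are set side by side without a test of their relation.

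Agt (ENSMUSG00000031980, chromosome 8 of GRCm38 from 124556534 to 124569706, minus strand) encodes the precursor of all angiotensins. Its level was 54.4, 69.8 and 43.8 CPM in Control replicates 2, 4 and 5, 74.1, 78.3 and 70.4 CPM in HN replicates 4, 8 and 12, and 128, 114.6 and 100.03 CPM in PEC replicates 1, 2 and 3. The 3 PEC libraries were above all 6 others, and the lowest HN library lay just above the highest Control library. The log2 fold change of PEC against HN was 0.62 (SE 0.16, edgeR adjusted p = 0.0129), and that of PEC against Control was 1.03 (SE 0.16, edgeR adjusted p = 0.000684). Both were called, and without PEC replicate 3 they were 0.73 and 1.14. The call in PEC against HN was lost under library totals, where the log2 fold change was 0.42 with an edgeR adjusted p of 0.0811, and it fell short of the fold change without HN replicate 12 (0.58) and without PEC replicate 1 (0.53). In HN against Control the log2 fold change was 0.41 (SE 0.16, edgeR adjusted p = 0.0674) and was not called with TMM. It was called under library totals at 0.96 (edgeR adjusted p = 0.00134) and, with TMM, without Control replicate 4 at 0.60 (edgeR adjusted p = 0.00922), while without Control replicate 5 it was 0.26 (edgeR adjusted p = 0.18).

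Ren1 (ENSMUSG00000070645, chromosome 1 from 133350510 to 133360325, plus strand) encodes renin, the protease that starts the cascade. It stood at 81.9, 86.5 and 54.1 CPM in Control, 59.6, 58.2 and 45.8 CPM in HN, and 159, 104 and 76.4 CPM in PEC libraries, in the same order of replicates. All PEC libraries were above all HN libraries, PEC replicate 1 was the highest of the 9, and PEC and Control overlapped through PEC replicate 3. The log2 fold change of PEC against HN was 1.05 (SE 0.28, edgeR adjusted p = 0.0167), a fold of 2.08. It remained called without PEC replicate 1 (0.72) and without PEC replicate 3 (1.30), and under library totals (0.86, edgeR adjusted p = 0.0407). Without HN replicate 12 it was 0.94 with an edgeR adjusted p of 0.0619 and was no longer called. PEC against Control gave 0.61 (SE 0.28, edgeR adjusted p = 0.104), which was not called with TMM, while library totals gave 0.96 (edgeR adjusted p = 0.0218) and the fit without PEC replicate 3 gave 0.85 (edgeR adjusted p = 0.0255), both called. It was smaller without PEC replicate 1, at 0.28 (edgeR adjusted p = 0.361), and without Control replicate 5, at 0.42 (edgeR adjusted p = 0.277). HN against Control was not called with either scaling, at -0.44 with TMM and 0.10 under library totals.

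Agt and Ren1 were the members called higher in PEC than in HN libraries, so the stretches before their RefSeq starts are shown, on GRCm38.p6. For Agt this start, 124569706, is that of the deposited table, while for Ren1 it is 133350674, which lies 164 bases inside the gene as the deposited table gives it. The Agt stretch is the 250 bases before the start, chr8:124569707-124569956 on the minus strand, with TTCNNNGAA, the spacing that STAT proteins bind, and TATAAA, the TATA box, in capitals. The Ren1 stretch is a window of 30 bases, chr1:133350633-133350662 on the plus strand, before the RefSeq start and within the gene of the deposited table, with TATAAA in capitals.
Agt: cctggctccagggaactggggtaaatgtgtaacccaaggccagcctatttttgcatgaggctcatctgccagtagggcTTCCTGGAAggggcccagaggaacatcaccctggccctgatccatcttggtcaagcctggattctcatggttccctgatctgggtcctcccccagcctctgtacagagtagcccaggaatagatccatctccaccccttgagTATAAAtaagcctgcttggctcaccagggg
Ren1: atacatggtgtgTATAAAagaaggctcagg
The first base of TATAAA lay 30 bases before the RefSeq start of Agt and 29 bases before that of Ren1, and that of the TTCNNNGAA match lay 172 bases before the start of Agt. Promoters of 300 bases were listed for 8 of the 9 genes, 11 in all, without one for Agtr1a. The 3 of Mme include windows that overlap, so that a match at the same base can count in more than 1 promoter, and they lie 53674 bases or more inside the gene of the deposited table. On either strand TATAAA was found in 5 of these 11 promoters (of Ace, Agt, Agtr1b, Enpep and Ren1), against 13.6% of the 32851 promoters of all genes, and TTCNNNGAA in 3 (of Agt, Enpep and Mme), against 8.3%. CCAAT was found in 7 of the 11 against 37.4% of all promoters, and CAGAC, the SMAD box, in 3 (of Agtr1b, Mme and Ren1) against 49.6%. The CAGAC matches of Ren1 lay 161 and 9 bases before its RefSeq start, outside the window shown. TGACG was found in 1 (of Atp6ap2) against 20.8%, and GTTAAT in 0 against 7.1%. A match describes the letters in the window and is neither a site nor a cause.

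**Figure D1:**
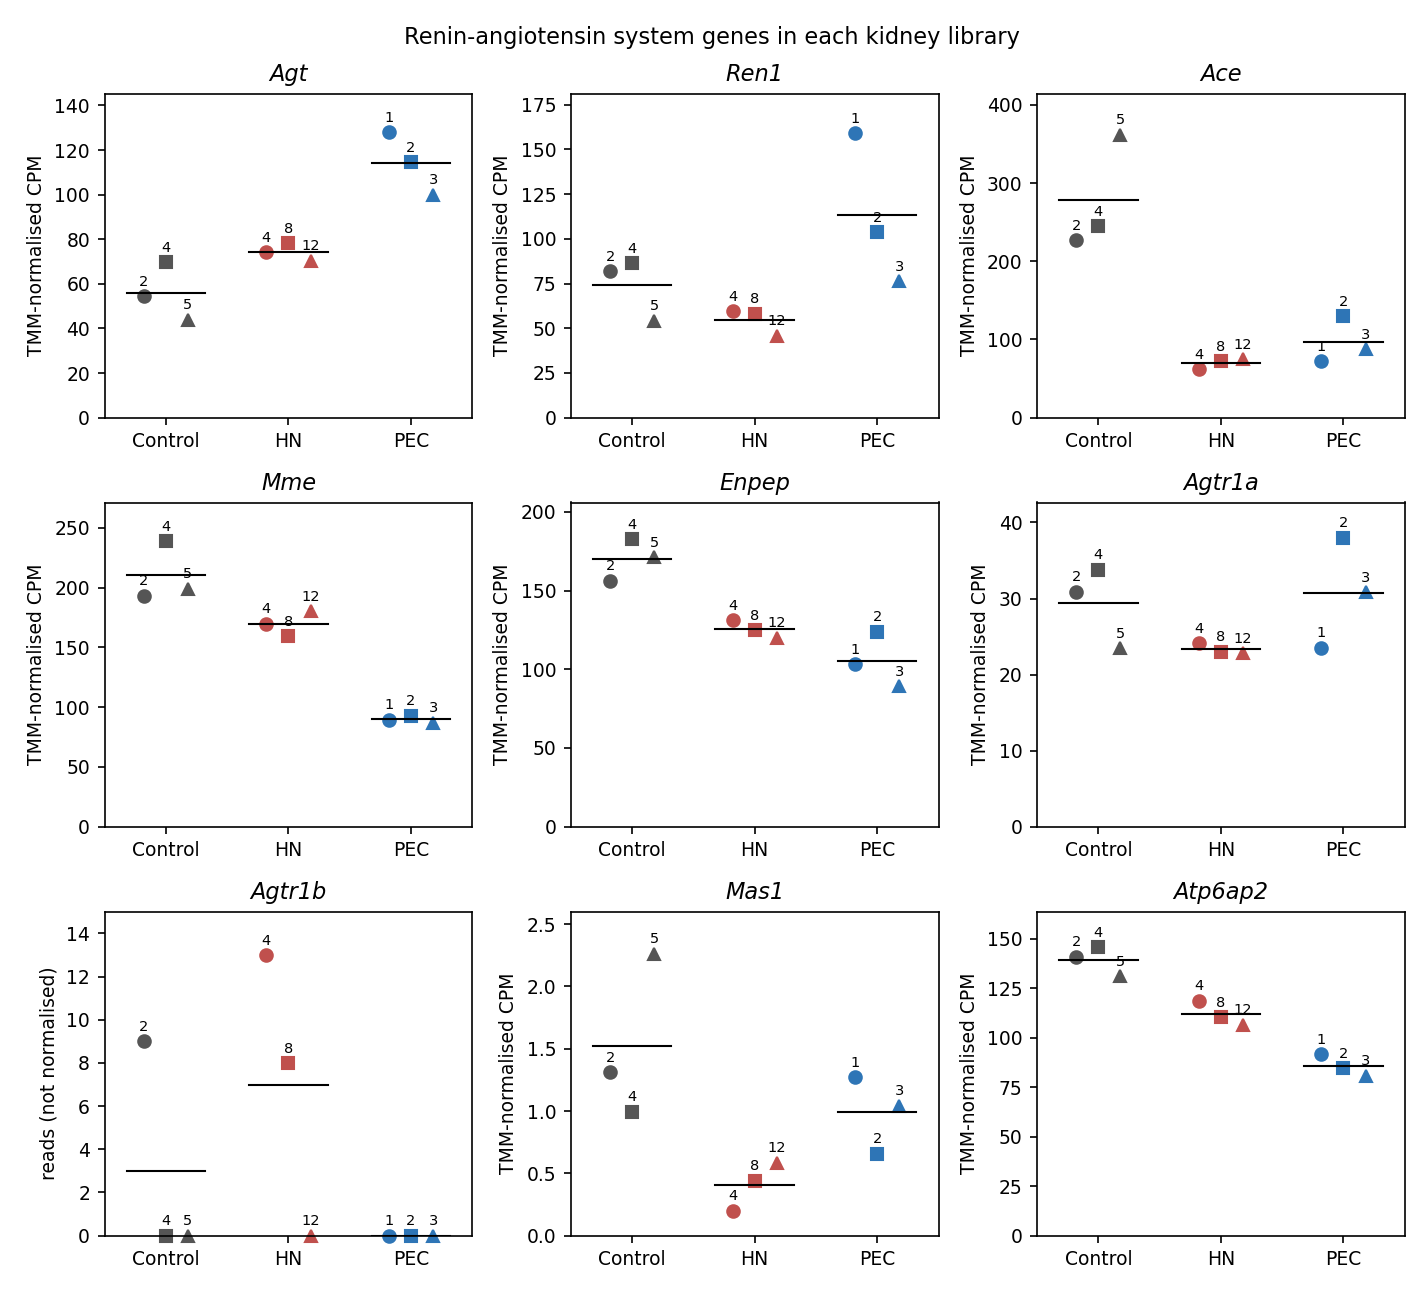
TMM-normalised CPM of each gene in each library, with the replicate number above each point and the group mean as a line; Agtr1b is shown as raw reads. Agt, Mme and Atp6ap2 order the groups without overlap. Ace and Enpep separate the Control libraries from the other 6, Mas1 separates the HN libraries, and Ren1 is highest in PEC replicate 1 at 159 CPM.

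Among the peptidases, Ace (ENSMUSG00000020681, chromosome 11 from 105967945 to 105989964, plus strand), which makes angiotensin II and also breaks down bradykinin, had the largest change. It was at 227, 245 and 362 CPM in Control, 61.9, 71.9 and 74.7 CPM in HN, and 72.3, 129.5 and 87.9 CPM in PEC libraries. The Control libraries were above all others, and HN and PEC libraries overlapped, with PEC replicate 2 the highest of these 6. The log2 fold change of HN against Control was -2.00 (SE 0.24, edgeR adjusted p = 0.000212), a fold of 0.25, and it stayed called under library totals at -1.43 and between -2.12 and -1.76 with each library left out in turn. PEC against Control was also called, at -1.53 (SE 0.24, edgeR adjusted p = 0.000913) and -1.44 without PEC replicate 3. PEC against HN, at 0.47 (SE 0.24, edgeR adjusted p = 0.147), was not, and was 0.56 without PEC replicate 3 and 0.20 without PEC replicate 2. An antisense gene, Gm11651, covers 5.58% of the exonic bases of Ace and had 0 to 14 reads in a library.

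The proximal tubule carries much of the kidney's Ace. Of 10 proximal tubule markers, 0 were called higher and 9 lower in HN against Control, with a median log2 fold change of -1.90, and the counts were the same under library totals (median -1.34). In PEC against HN, 8 were called higher and 0 lower with TMM, and 6 higher and 0 lower under library totals. The exception in direction was Slc5a12, at 119, 82.3 and 87.1 CPM in HN and 27.1, 85.4 and 23.3 CPM in PEC libraries, with overlap through PEC replicate 2 and a log2 fold change of -1.08 (edgeR adjusted p = 0.105) that limma on log2(FPKM + 1) called, at -1.42. Without PEC replicate 3 the count stayed at 8 higher and 0 lower. PEC against Control, where Ace, Mme and Enpep were also called lower, had 0 markers higher and 9 lower (median -1.12), and 0 higher and 6 lower under library totals. The markers summed to 2632, 2795 and 2748 FPKM in Control, 929, 917 and 972 FPKM in HN, and 1645, 1966 and 1423 FPKM in PEC libraries. The most abundant marker was Slc27a2, an acyl-CoA synthetase and fatty acid transporter, and the called markers with the largest falls in HN were Slc7a13 (-2.83), Slc22a6 (-2.32), Slc34a1 (-2.28) and Slc27a2 (-1.95). The largest rises from HN to PEC libraries were those of Slc22a8 (1.90), Slc34a1 (1.23), Slc27a2 (1.20) and Slc22a6 (0.99). None of the 10 was at 0. In whole kidney, fewer cells of a type and less RNA per cell cannot be told apart, and the part of these markers in the change of Ace was not tested.

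Mme (ENSMUSG00000027820, chromosome 3 from 63241537 to 63381623, plus strand) encodes neprilysin, a membrane peptidase that also degrades natriuretic peptides and kinins. Its level was 193, 239 and 199 CPM in Control, 169.9, 159.5 and 180.3 CPM in HN, and 89.5, 92.9 and 86.8 CPM in PEC libraries. The PEC libraries were close together and below all 6 others. Neprilysin was called lower in PEC against HN at a log2 fold change of -0.92 (SE 0.10, edgeR adjusted p = 0.000121) and in PEC against Control at -1.23 (SE 0.10, edgeR adjusted p = 1.61e-05). Library totals, DESeq2, limma and all 9 fits with a library left out kept both calls, at -0.87 and -1.19 without PEC replicate 3. HN against Control passed the adjusted p but not the fold change, at -0.31 (SE 0.10, edgeR adjusted p = 0.0274). Library totals gave 0.25, the other direction. Without Control replicate 4 it was -0.20 (edgeR adjusted p = 0.103). The adjusted p was also above 0.05 without HN replicate 4 (edgeR, 0.0718), without HN replicate 8 (edgeR, 0.107) and with DESeq2 (0.0547). The proximal tubule markers had a higher sum in every PEC than in every HN library, with Slc5a12 as the exception given above. Their part in the values of Mme was not tested.

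Enpep (ENSMUSG00000028024, chromosome 3 from 129269175 to 129332720, minus strand) encodes aminopeptidase A, which turns angiotensin II into angiotensin III. Its level was 156, 183 and 171 CPM in Control, 131, 125 and 120.1 CPM in HN, and 103, 124 and 89.4 CPM in PEC libraries. Control was above the other groups, and PEC replicate 2 lay within the HN range. PEC against Control was called at a log2 fold change of -0.69 (SE 0.12, edgeR adjusted p = 0.00123), but fell short of the fold change without PEC replicate 3 (-0.56) and under library totals (-0.33). HN against Control was -0.44 (SE 0.12, edgeR adjusted p = 0.0147), short of the fold change, and 0.12 under library totals. PEC against HN was -0.25 (SE 0.12, edgeR adjusted p = 0.126) with all libraries, -0.12 without PEC replicate 3 (edgeR adjusted p = 0.427) and -0.39 without PEC replicate 2 (edgeR adjusted p = 0.0199). Library totals gave -0.45 (edgeR adjusted p = 0.0116), and none of these reached the fold change.

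Among the receptors, Agtr1a (ENSMUSG00000049115, chromosome 13 from 30336441 to 30382867, plus strand), the main type 1 receptor gene of mouse kidney, was not called in any of the 3 comparisons. Its level was 30.9, 33.8 and 23.5 CPM in Control, 24.2, 22.98 and 22.8 CPM in HN, and 23.6, 38.0 and 30.8 CPM in PEC libraries. The groups overlapped throughout. Its log2 fold changes were -0.33 (SE 0.18, edgeR adjusted p = 0.177) in HN against Control, which library totals turned to 0.22, 0.40 (SE 0.18, edgeR adjusted p = 0.111) in PEC against HN and 0.07 (SE 0.18, edgeR adjusted p = 0.79) in PEC against Control. The last of these was near 0 and turned to -0.12 without PEC replicate 2 and to -0.08 without Control replicate 5. Without PEC replicate 3 the comparisons of PEC with HN and Control gave 0.42 and 0.09. PEC against HN was 0.22 (edgeR adjusted p = 0.374) without PEC replicate 2. It was 0.56 without PEC replicate 1, which passed the adjusted p (edgeR adjusted p = 0.0309) but not the fold change.

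Agtr1b (ENSMUSG00000054988, chromosome 3 from 20314473 to 20367177, minus strand), the second type 1 receptor gene of rodents, did not pass the filter. It had 9, 0 and 0 reads in Control, 13, 8 and 0 reads in HN, and 0 reads in each PEC library. A count of 0 allows up to 3 reads, or 0.033 to 0.0497 CPM in the 6 libraries at 0, which covers counting error only. Control replicates 4 and 5 and HN replicate 12 were at 0 like the PEC libraries, so the groups overlapped. As the gene did not pass the filter, no test of it is given. Of the 2136 stretches of 50 bases in its annotated transcripts, 33 also occur in Agtr1a, which had 1432 to 2545 reads in a library, so the few reads of Agtr1b are uncertain.

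Mas1 (ENSMUSG00000068037, chromosome 17 from 12841079 to 12868143, minus strand) encodes the receptor of a shorter angiotensin peptide whose actions oppose those of angiotensin II. Its reads numbered 81, 62 and 138 in the Control libraries, 17, 43 and 53 in the HN libraries, and 99, 44 and 63 in the PEC libraries, or 1.31, 0.994 and 2.26 CPM, 0.199, 0.441 and 0.584 CPM, and 1.27, 0.657 and 1.04 CPM. Control and PEC libraries were all above the HN libraries on this scale, though in FPKM PEC replicate 2 (0.22) lay below HN replicate 12 (0.24), and Control and PEC overlapped. HN against Control was called at a log2 fold change of -1.89 (SE 0.49, edgeR adjusted p = 0.0122), and under library totals at -1.31 (edgeR adjusted p = 0.0482). PEC against HN, at 1.28 (SE 0.49, edgeR adjusted p = 0.0652), was not called, although DESeq2 called it at 1.27 with an adjusted p of 0.0361. PEC against Control was -0.62 (SE 0.47, edgeR adjusted p = 0.318). Without PEC replicate 3 these comparisons gave 1.26 and -0.63. With each library left out in turn, Mas1 ranged from -2.24 to -1.49 in HN against Control, from 0.94 to 1.62 in PEC against HN and from -0.85 to -0.22 in PEC against Control, where the value nearest to 0 was that without Control replicate 5.

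Atp6ap2 (ENSMUSG00000031007, chromosome X from 12587801 to 12617049, plus strand) encodes the prorenin receptor, which is also an accessory subunit of the vacuolar proton pump and is made by many cell types. Its level was 141, 146 and 131 CPM in Control, 119, 110.4 and 107 CPM in HN, and 91.8, 84.6 and 80.8 CPM in PEC libraries. The 3 groups were ordered without overlap, Control highest and PEC lowest. PEC against Control was called at a log2 fold change of -0.70 (SE 0.08, edgeR adjusted p = 0.000119), but at -0.34 under library totals it fell short of the fold change. HN against Control (-0.32, edgeR adjusted p = 0.0116) and PEC against HN (-0.39, edgeR adjusted p = 0.00501) passed the adjusted p and not the fold change, and library totals turned the first to 0.24, which also passed the adjusted p (edgeR adjusted p = 0.0431), as did both limma fits. Both limma fits called PEC against HN, at -0.59 and -0.60 (adjusted p = 0.000459 and 0.000504). Without PEC replicate 3, PEC against HN was -0.32 and PEC against Control -0.64.

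**Figure D2:**
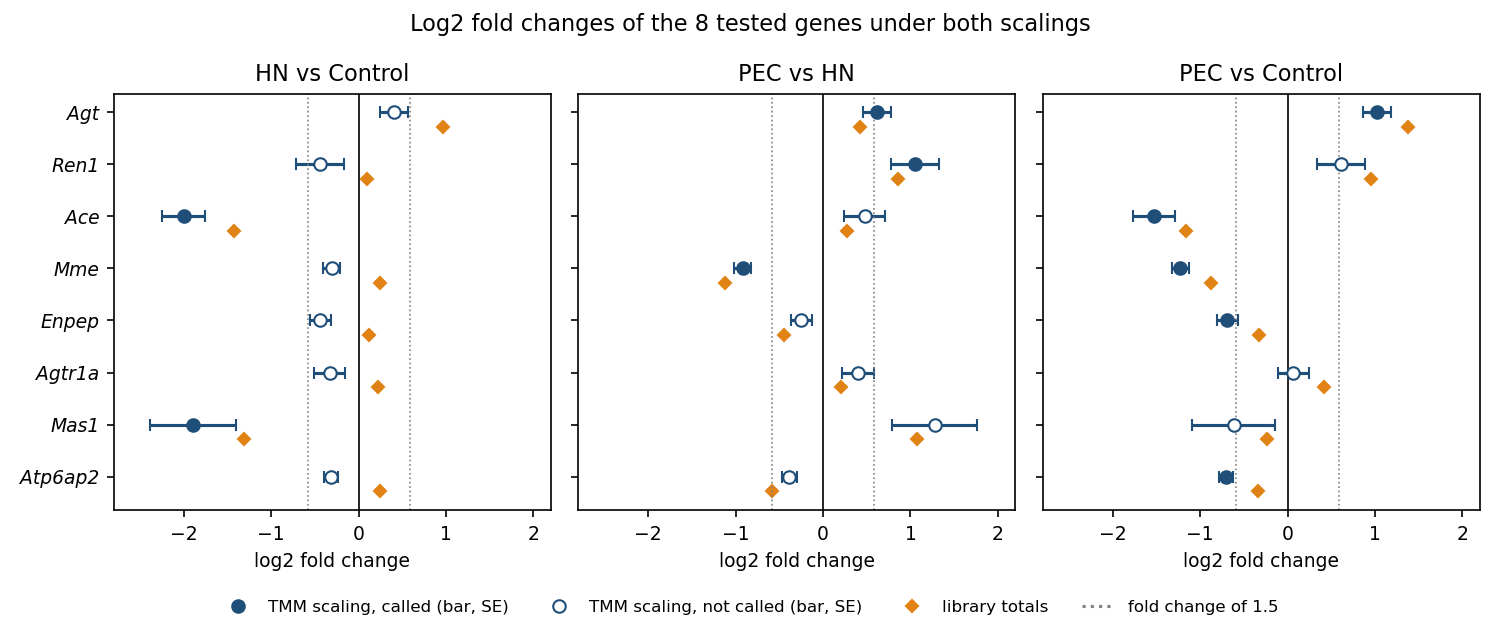
Log2 fold changes of the 8 tested genes in the 3 comparisons, with TMM scaling (circles, filled where called, bars SE) and library totals (diamonds); dotted lines mark a fold change of 1.5. Ace and Mas1 are lower in HN than in Control libraries under both scalings, at -2.00 and -1.89 with TMM, while 5 genes change sign between the scalings in that comparison.

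Per gene length, the order of the 9 genes differed between the groups. In Control libraries Atp6ap2 was at 39.4 ± 3.24 FPKM (SD, n = 3), Ace at 38.7 ± 9.004, Ren1 at 33.3 ± 8.70, Enpep at 26.7 ± 2.39 and Agt at 22.0 ± 5.71 FPKM, each overlapping with the next. Below them and without overlap came Mme at 13.5 ± 1.90 and Agtr1a at 7.82 ± 1.64 FPKM, while Mas1 was at 0.417 ± 0.165 and Agtr1b at 0.0167 ± 0.0289 FPKM. In HN libraries Atp6ap2 at 45.8 ± 1.27 and Agt at 42.1 ± 2.38 FPKM (SD, n = 3) overlapped at the top, Ren1 at 35.2 ± 4.28 and Enpep at 28.5 ± 0.531 followed, and Ace at 14.1 ± 1.75 overlapped with Mme at 15.8 ± 1.16 FPKM. In PEC libraries Ren1 at 62.9 ± 23.4 and Agt at 55.6 ± 6.77 FPKM (SD, n = 3) overlapped at the top, followed by Atp6ap2 at 30.2 ± 1.94 and Enpep at 20.7 ± 3.42 FPKM. Enpep and Ace (16.8 ± 5.17 FPKM) overlapped, and Agtr1a at 10.2 ± 2.395 lay above Mme at 7.16 ± 0.246 FPKM. Agt thus stood below Ace in Control and above it in HN and PEC libraries.

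**Figure D3:**
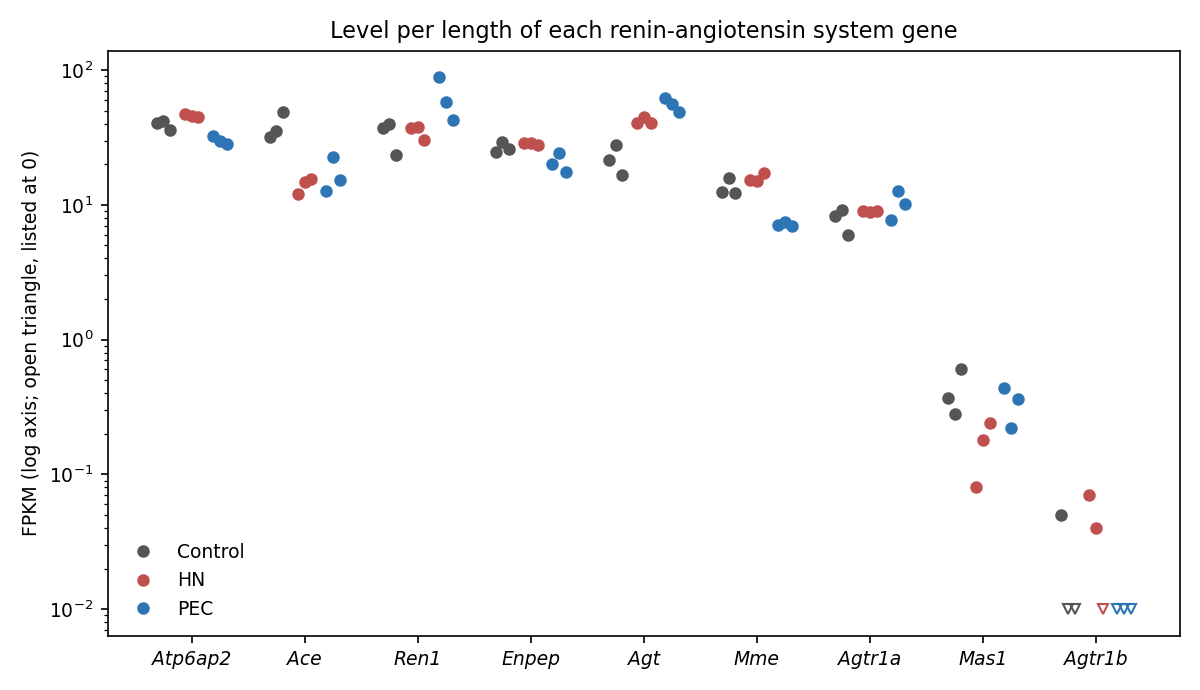
FPKM of each gene in each library on a log axis, genes ordered by their mean in Control libraries; open triangles mark libraries where the gene is listed at 0. Agtr1a and the 6 genes left of it lie between 6.01 and 88.4 FPKM, Mas1 between 0.08 and 0.6 FPKM, and Agtr1b at 0.07 FPKM or less.

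Other peptidases act on the same peptides. The counts of this and the following lists stand beside 32.1% of all tested genes called in HN against Control and 28.4% in PEC against HN. Of 11 listed, 8 were tested, and 0 were called higher and 2 lower in HN against Control, with a median log2 fold change of -0.12 beside -0.001 over all tested genes, a median that library totals turned to 0.43. They were Klk1 (-1.65), a tissue kallikrein that releases kinins, and Anpep (-1.32), which removes the first residue of angiotensin III. Under library totals these 2 were also called lower (-1.097 and -0.752), and 4 others were called higher. In PEC against HN, 3 were called higher and 2 lower with TMM and likewise under library totals, namely Klk1 (1.66), Anpep (0.92) and the carboxypeptidase Ctsa (0.83), and Lnpep (-1.30), the angiotensin IV binding aminopeptidase, and Nln (-0.67), which fell short of the fold change without PEC replicate 3 (-0.54). Klk1 was the most abundant, at 1452, 1233 and 1156 FPKM in Control, 606, 617 and 544 FPKM in HN, and 1818, 1395 and 1579.5 FPKM in PEC libraries. The HN libraries were the lowest, Control and PEC overlapped, and the log2 fold change of PEC against Control was 0.00 (edgeR adjusted p = 0.985). Of the stretches of 50 bases in Klk1 transcripts 24.0% also occur in the related Klk1b genes, so its count may hold reads of these. The chymase and mast cell peptidases Cma1, Cpa3 and Ctsg were at most 0.12 FPKM in any library.

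Of 9 other receptors and receptor partners, 7 were tested. In HN against Control 2 were called higher, the arrestin Arrb2 (1.72) and Rgs2 (0.97), a regulator that shortens Gq signalling, and 1 lower, the type 2 receptor partner Mtus1 (-0.69), while library totals called the same 2 higher and 0 lower, with Mtus1 at -0.13. Arrb1 was called higher in PEC against HN (1.46) and Gnaq, the G protein alpha subunit that type 1 receptors use, lower (-0.95). Arrb1 rested on PEC replicates 1 and 3, at 6.03 and 5.56 FPKM beside 1.53 FPKM in PEC replicate 2, and was not called without PEC replicate 3 (1.27). The type 1 receptor partner Agtrap was the most abundant of the list and was not called in any comparison, Agtr2 was at most 0.03 FPKM, and Mrgprd was listed at 0 in all 9 libraries.

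All 14 genes of renin cells and renin release were tested, of which 3 were called higher and 2 lower in HN against Control (median 0.42), beside 32.1% of all tested genes called. The called genes were Hdac9 (2.19), Ptger4 (2.17), a prostaglandin E2 receptor, Rbpj (0.68), the Notch partner that keeps renin cells, Nr1h3 (-1.11) and Vdr (-0.96), the vitamin D receptor and the most abundant of the list. Under library totals 6 were called higher and 0 lower, and Nr1h3 (-0.55) and Vdr (-0.40) were not called. In PEC against HN, where Ren1 was higher, 1 was called higher and 3 lower with TMM (median -0.20), and 1 higher and 4 lower under library totals; the calls with TMM were Nos1 (1.06), Itga8 (-1.45), Ptger4 (-1.07) and Rbpj (-0.82). The renin cell markers Akr1b7 (-0.11, edgeR adjusted p = 0.768) and Gja5 (0.23, edgeR adjusted p = 0.658), the latter a connexin of juxtaglomerular cells, were not called there. Without PEC replicate 3, Vdr (0.59) and Ptgs2 (-2.39) were also called in this comparison.

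In the kinin system, whose peptides Ace and neprilysin break down, 4 of 5 genes were tested. In HN against Control the bradykinin receptor Bdkrb2 (2.59) and the kininogen Kng1 (1.095) were called higher, and Klk1 and the kininogen Kng2 (-0.60) lower, although Kng2 was at -0.04 and not called under library totals. Klk1, Kng2 (1.06) and Kng1 (0.94) were called higher in PEC against HN and 0 genes lower, and Kng1 was not called under library totals (0.74). Kng2 was at 56.2, 62.7 and 52.2 FPKM in Control, 55.9, 51.5 and 56.1 FPKM in HN, and 98.05, 88.7 and 107 FPKM in PEC libraries, so the PEC libraries were above all others.

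Of 6 effectors of aldosterone, the hormone whose release angiotensin II drives, 0 were called in either direction in HN against Control by edgeR with TMM, Scnn1a passed the adjusted p alone (-0.38, edgeR adjusted p = 0.0417, and 0.18 under library totals), DESeq2 called 0 higher and 1 lower, and library totals called 3 higher and 0 lower. The sodium channel subunit Scnn1a was called higher in PEC against HN (1.19) and 0 were called lower, also under library totals. Its level was 20.5, 21.5 and 21.1 FPKM in Control, 24.3, 19.0 and 27.0 FPKM in HN, and 45.97, 41.5 and 50.9 FPKM in PEC libraries, with PEC above all others. The most abundant was Hsd11b2 (0.31 in HN against Control and 0.37 in PEC against HN), which shields the aldosterone receptor from corticosterone.

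**Figure D4:**
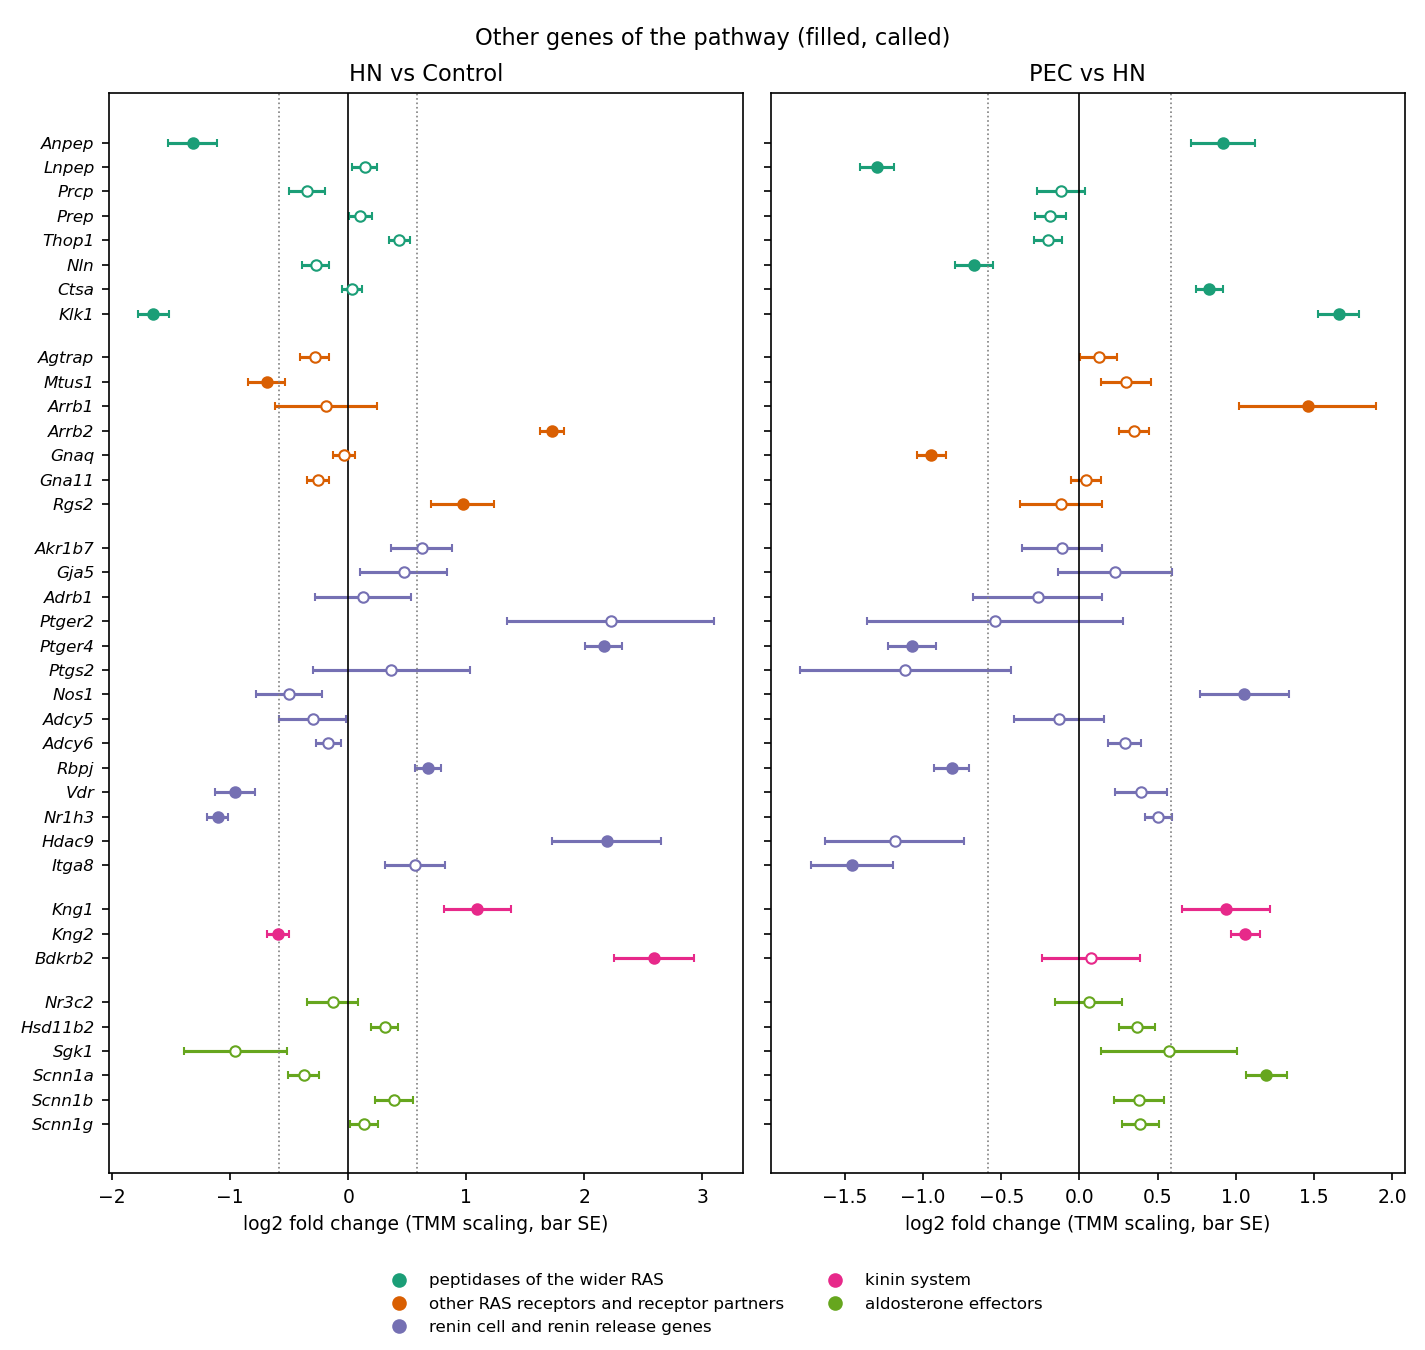
Log2 fold changes with TMM scaling (bars SE, filled where called) of the tested genes of the 5 lists of the wider pathway in HN against Control and PEC against HN; dotted lines mark a fold change of 1.5, and Klk1 is drawn once. Klk1 lies at -1.65 in the left panel and 1.66 in the right one.

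Renin-producing cells belong to the lineage of smooth muscle cells and pericytes. Of 7 markers of these, 4 were called higher in HN against Control and 0 lower, namely Acta2 (1.31), Pdgfrb (1.18), Tagln (1.16) and Cspg4 (0.67), and 5 higher and 0 lower under library totals. Only Myh11 was called higher in PEC against HN (0.94), and 0 were called lower. Myh11 was highest in PEC replicate 3, and without that library the counts were also 1 higher and 0 lower. Their summed level, in which Tagln was the most abundant, was 65.1, 63.7 and 58.4 FPKM in Control, 203, 185.5 and 176 FPKM in HN, and 141, 159.9 and 142 FPKM in PEC libraries. The PEC libraries were between the others in FPKM, whereas in TMM-normalised CPM the sums of HN (572, 520.5 and 499.5) and PEC libraries (486, 510.3 and 491) overlapped. None of these markers was at 0, and their part in the values of Ren1 was not tested.

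In HN against Control, DESeq2 applied without the filter gave medians of 4.34 for adrenal and 3.58 for leukocyte markers. With edgeR and TMM, leukocyte markers had the largest median change of the marker lists in this comparison. All 6 were called higher in HN against Control, with a median log2 fold change of 3.54, led by Lyz2 (4.73), the most abundant, Adgre1 (3.74), C1qa (3.73) and Cd68 (3.35). From HN to PEC libraries 5 were called lower and 0 higher, of which Adgre1 (-2.07), Ptprc (-1.79), C1qa (-1.18) and Lyz2 (-1.08) changed most, and both counts were the same under library totals. Their sum was 36.3, 39.9 and 36.1 FPKM in Control, 909, 932 and 821 FPKM in HN, and 323, 332 and 428 FPKM in PEC libraries, with none at 0. Their part in the changes of Arrb2 and Ptger4, which leukocytes also express, was not tested.

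Markers of other cell types were counted in the same way. Of 5 podocyte markers 1 was called higher in HN against Control, Synpo (0.82), and 0 lower, beside 3 higher and 0 lower under library totals, and 0 were called in PEC against HN, with Podxl the most abundant. Of 6 endothelial markers, on whose cells Ace is also found, Kdr (-1.002) was called lower and 0 higher in HN against Control, which library totals turned to 0 lower and 1 higher, and Emcn (0.59), the most abundant, was called higher in PEC against HN, but neither under library totals nor without PEC replicate 3 (0.39), a fit that called Kdr lower (-0.70). Their sums were 47.9 ± 3.15, 58.0 ± 0.646 and 52.0 ± 10.1 FPKM (SD, n = 3) in Control, HN and PEC libraries, and those of the podocyte markers 56.4 ± 0.961, 78.3 ± 5.08 and 75.7 ± 5.24 FPKM (SD, n = 3). In TMM-normalised CPM the endothelial sums were 359, 389 and 427 in Control and 313, 310 and 299 in HN libraries, the other direction. PEC libraries were at 264, 308 and 388 CPM. The podocyte sums of Control (382, 380 and 375 CPM) and HN libraries (413.5, 364 and 351.5 CPM) overlapped on this scale, and PEC libraries were at 445, 436 and 392 CPM. Of the markers of neutrophils and mast cells, whose granule proteases can cut angiotensin peptides, 3 of 6 and 3 of 6 were tested. Among those not tested, Ngp had 8, 32 and 8 reads in Control libraries and 0 in each of the other 6, which DESeq2, applied without the filter, called lower in HN against Control (-6.96, adjusted p = 0.00223). Elane and Camp were at most 0.08 FPKM and Fcer1a, Tpsb2 and Mcpt4 at most 0.14 FPKM in any library. For neutrophils 0 of the tested markers were called in either direction by edgeR with TMM, beside 1 higher and 0 lower in HN against Control under library totals (S100a8, 1.44), with S100a9 the most abundant. For mast cells Ms4a2 was called higher in HN (1.65) and lower in PEC against HN (-1.60, and -1.63 but not called without PEC replicate 3), Hdc higher in PEC against HN (1.71), and Kit, the most abundant, was called higher in HN against Control under library totals alone (1.08) among the edgeR scalings. Of 6 adrenal markers, Star alone was tested and was not called in HN against Control or PEC against HN with TMM, though library totals called it higher in HN against Control (0.64). In PEC against Control it was called higher with TMM (0.62, edgeR adjusted p = 0.0488) and not without PEC replicate 3 (0.50, edgeR adjusted p = 0.141). Cyp21a1, which did not pass the filter, was called higher in HN against Control by DESeq2 (5.32, adjusted p = 0.0467) and by edgeR without PEC replicate 3 (6.15, adjusted p = 0.0449), a fit in which it passed. Cyp11b2 was at 0 in all 9 libraries, and Cyp21a1 and the remaining 3 markers were at most 0.07 FPKM.

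**Figure D5:**
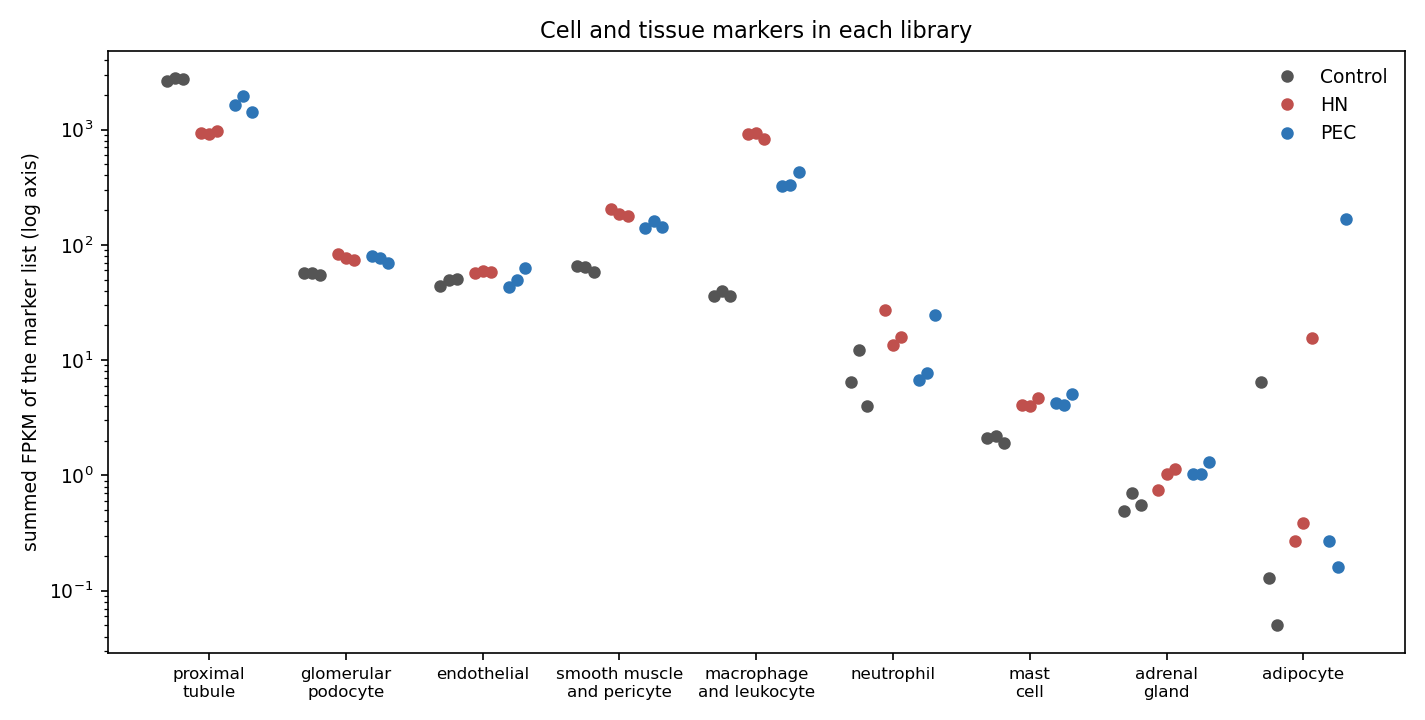
Summed FPKM of each list of markers in each library, on a log axis, by group. Proximal tubule markers are lowest in HN libraries (917 to 972 FPKM), leukocyte markers lowest in Control, and the adipocyte list reaches 169 FPKM in PEC replicate 3.

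Of the 6 adipocyte markers 5 were tested, without Lep, and 0 were called in HN against Control or PEC against HN. Fat tissue also makes angiotensinogen. PEC replicate 3 held 100.03 CPM of Agt and 76.4 CPM of Ren1, and the part of fat in the values of either gene was not tested.

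The genes with the most similar patterns over the 9 libraries were named by the smallest root mean square difference of centred log2 CPM, among 12079 genes. They were Hirip3 (0.11), Lin37 (0.14) and Tpd52l2 (0.14) for Agt, whose own root mean square deviation was 0.47, and Serpina1b (0.18), Mrto4 (0.21) and Slc22a17 (0.23) for Ren1, with 0.52 of its own. For Ace they were Cyp51, Aacs and Kl (0.17 to 0.18, beside 0.89 for Ace itself), of which Cyp51 and Aacs act in sterol and acetoacetate metabolism and Kl encodes klotho. Mme was followed by Tulp4, Ralgapa1 and Phldb2 (0.07 to 0.09, beside 0.53), Enpep by Fbxl4, Htt and Smap1 (0.08 for each, beside 0.32), Atp6ap2 by Hmgxb3, Eaf1 and Metap1 (0.04 to 0.05, beside 0.30), and Agtr1a by Elac2, Rap1gds1 and Sun1 (0.13 to 0.14, beside 0.27). Closeness of pattern is a description over these 9 libraries.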

How the data were processed

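Per the file headers, the authors deposited for each gene and library a read count and its FPKM, which scales the count by gene length and sequencing depth. The submitters' processing notes name Bowtie 0.12.2 and the builds mm8 and mm9, whereas the table's coordinates are identical to GENCODE M21 on GRCm38 for 94.3% of 55144 shared genes. The counting program, its strand setting and its treatment of shared reads are not given in the sources used here. The deposited counts were tested with edgeR 4.0.16 in R 4.3.3 (filterByExpr, TMM, robust glmQLFit, glmQLFTest) in a single fit of the 9 libraries, with Benjamini-Hochberg adjustment over all tested genes. Calls needed both an adjusted p of at most 0.05 and a 1.5-fold change or more. CPM are counts divided by library total times TMM factor. The steps were tested on simulated counts. DESeq2 1.42.0, limma 3.58.1 on log2(FPKM + 1) and log2(FPKM + 0.1) where the mean FPKM reached 0.5, other scalings, filters and call rules, and each library left out in turn were the alternatives.

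The members and lists were chosen with earlier results of these data known. The genes named from each list include up to 4 called genes with the largest change in HN against Control or PEC against HN and the most abundant gene. Others, among them Nln, Akr1b7, Gja5 and Slc5a12, were named in addition to this rule. The 3 genes nearest to a member were sought among genes whose mean FPKM reached 1, leaving out members, mitochondrial genes and Gm- and Rik-named genes. Between pairs of replicates, chi-square divided by its degrees of freedom was 62.8 to 212, above the value of 1 for counting error alone.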

Additional observations from a re-analysis of the deposited data

How the results depend on the processing

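For the single genes, 129 results kept their direction and side of the threshold under settings other than leaving out a library, 9 became stronger, 9 weaker and 15 reversed; with each library left out in turn, 208 stayed the same, 2 became stronger, 4 weaker and 2 reversed. Scaling was the main dependence. In HN against Control, library totals reversed Ren1 to 0.10, Agtr1a to 0.22, Mme to 0.25, Enpep to 0.12 and Atp6ap2 to 0.24, limma on log2(FPKM + 1) gave 0.10, 0.19, 0.22, 0.09 and 0.21, and limma on log2(FPKM + 0.1) gave 0.11, 0.21, 0.23, 0.10 and 0.22; this result depends on the scaling. Agtr1a in PEC against Control ranged from -0.12 to 0.23 with each library left out. The count of called members in HN against Control was 5 with the adjusted p and no fold change limit. In PEC against HN it was 1 at a fold change of 2 and ranged from 1 to 3 with each library left out, the lowest without HN replicate 12, and in PEC against Control it was 3 at a fold change of 2. Both limma fits called 1 member higher and 1 lower in HN against Control, 1 higher and 2 lower from HN to PEC, and 2 higher and 2 lower from Control to PEC. Called genes numbered 3530 in PEC against HN and 5026 in PEC against Control at a fold change of 2, and 5066 in PEC against Control with limma on log2(FPKM + 1). Of all called genes 54.5% were higher in HN against Control, 46.7% in PEC against HN and 52.0% in PEC against Control, beside 85.7%, 29.6% and 76.6% under library totals, 81.9%, 28.6% and 70.7% with limma on log2(FPKM + 1), and 83.2%, 28.4% and 70.9% with limma on log2(FPKM + 0.1). Mas1 and Agtr1b were below the FPKM limit of the limma fits. No paired analysis was made, because the study assigned mice to groups at random and nothing in the labels pairs libraries across groups. Replicate numbers that groups share, 4 in Control and HN and 2 in Control and PEC, were not read as pairs.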
